A study of Arabidopsis thaliana with 8 samples.

Results

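Seed of Arabidopsis thaliana kept for 24 h in 3 µM of the hormone abscisic acid (ABA) was compared with seed kept for 24 h in water, on 2 arrays each out of the 8 arrays of the series. The comparison took in all 22746 probe sets that are not array controls, where a probe set is the group of short probes that stands for a transcript. A filter on dim signals left 15922 of them for the test, and 8898 of these named a single gene. Every group was seed of the Col-0 accession, stock N1092, from total RNA labelled with biotin: 3 µM ABA for 24 h, 30 µM ABA for 24 h, water for 24 h, and dry seed without treatment. Each group has an array A and an array B. The arrays in 3 µM ABA carry the title numbers 3 (A) and 5 (B), whereas the water arrays share the number 2, so each array in 3 µM ABA is given separately throughout. Whether the arrays of a group came from different seed lots is not stated, so the p-values describe only the scatter of these samples, which may be technical scatter.

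ABA is the hormone that holds a mature seed in its dormant, desiccation-tolerant state and that blocks germination when supplied from outside. It is bound by the PYR/PYL/RCAR receptors, which then inhibit PP2C phosphatases and so release SnRK2 kinases, and these act on bZIP transcription factors of the ABI5 type. In seed the pathway is known for keeping genes of storage proteins, oil bodies and late embryogenesis abundant (LEA) proteins active, and it opposes gibberellin, the hormone that promotes germination. No probe set past the filter named a receptor, phosphatase or SnRK2 kinase gene, or a gene of ABA synthesis or breakdown, so these steps of the pathway are not described here.

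No probe set passed the test. limma called 0 of 15922 probe sets (0%) at a Benjamini-Hochberg adjusted p under 0.05, and the smallest adjusted p was 0.56, shared by 3 probe sets. At an unadjusted p under 0.05 there were 635, fewer than the 796 that this threshold would pass if no probe set differed, so the counts at this threshold given below mark no single difference as established. Of the 635, 471 (2.96% of all compared) were higher in 3 µM ABA and 164 (1.03%) lower. The median difference over all probe sets was 0.025 on the log2 scale, where 1 is a doubling of signal plus the pseudocount of 3.99. Differences given below are means of 2 arrays in 3 µM ABA minus means of 2 arrays in water on that scale, with the standard error of the limma fit after the ± sign. The median standard error of a difference was 0.227, so that the 95% interval of a typical probe set reached 0.50 to either side. The mean difference exceeded 1 for 105 probe sets in the upward and 35 in the downward direction. Both 3 µM ABA arrays lay above both water arrays for 2902 probe sets (18.2%) and below both for 1867 (11.7%). Those shares are the background against which the gene groups below are read. With a common median on every array the share of higher probe sets among those at an unadjusted p under 0.05 was 56.9%, and with quantile normalization 60.9%, against 74.2% with the deposited scaling.

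The arrays in 3 µM ABA differed from each other about as much as they differed from water. Between 3 µM ABA A and B, 506 probe sets differed by over 1 on the log2 scale, and between water A and B also 506. The corresponding number was 206 within 30 µM ABA and 810 within dry seed. Array A in 3 µM ABA was closest to water A, with a Pearson correlation of 0.983 over the 15922 probe sets, and 228 probe sets differed by over 1 between them. Array B in 3 µM ABA was closest to 30 µM ABA A, with a correlation of 0.979, and 580 probe sets differed by over 1 between it and water B. Both correlations are across probe sets of whole arrays and share the layout of the array, so they describe likeness only.

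Differences that have no array in common can be set beside each other. The difference of 3 µM ABA A from water A and that of 3 µM ABA B from water B had the same sign for 51.2% of probe sets and correlated at 0.134. Both differences exceeded 1 upward for 28 probe sets and downward for 8, and they exceeded 1 in opposite directions for 10. With the water arrays exchanged, the share of equal signs was 43.5% and the correlation -0.184, and 90 probe sets exceeded 1 in opposite directions. Among the 68 plastid-encoded genes the share was 76.5%, with 51 higher in both differences and 1 lower in both, and it was 75.0% with the water arrays exchanged. Among the 121 cytosolic ribosomal protein genes it was 49.6%, with 52 lower in both differences and 8 higher in both, and 54.5% with the water arrays exchanged.

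**Figure D1:**
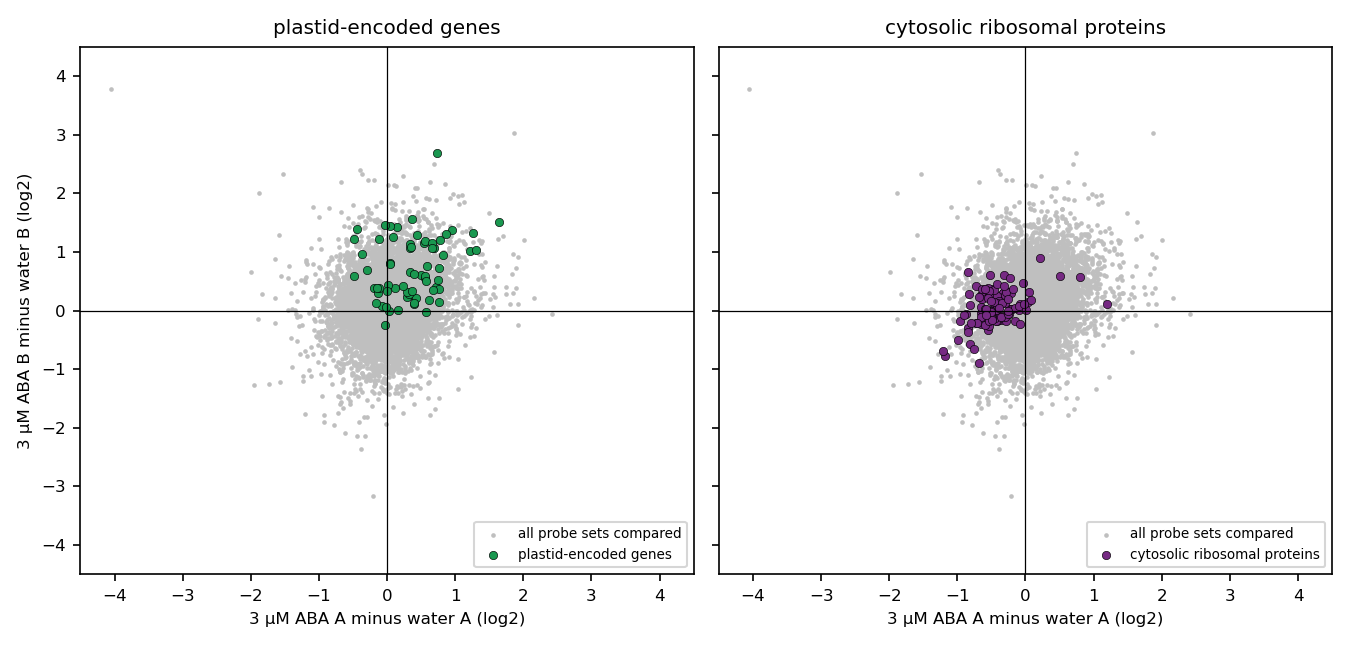
Each point is a probe set, placed by its log2 difference of 3 µM ABA A from water A (horizontal axis) and of 3 µM ABA B from water B (vertical axis), with plastid-encoded genes coloured in the left panel and cytosolic ribosomal protein genes in the right panel. Plastid-encoded genes lie mostly in the upper right (51 of 68), while ribosomal protein genes lie left of 0 with values on both sides of 0 on the vertical axis.

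Transcripts of the plastid genome stood above water as a group. Of the 68 measured plastid-encoded genes, 65 lay above and 3 below the water mean, and for 44 (64.7%) both 3 µM ABA arrays lay above both water arrays, against 18.2% of all probe sets. For 0 of the 68 did both lie below. At an unadjusted p under 0.05 there were 29 of the 68, all higher, against 2.96% of all probe sets, and 0 were called after adjustment. The median difference was 0.51, against 0.025 over all probe sets. It was 0.50 on array A and 0.49 on array B, a near match that holds for the pooled list but not for each class below. The water arrays were themselves apart in this list, water B lying below water A by a median of 0.26. Under spike-in scaling its median was 0.76, relative to 0.28 over the whole table.

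The median lay above water in every functional class of the plastid genome. The median was 0.47 for the 20 photosystem genes, 0.50 for the 7 cytochrome genes, 0.61 for the 6 ATP synthase genes and 0.67 for the 4 RNA polymerase genes. For the 9 genes of the NDH complex, which passes electrons around photosystem I, it was 0.55, and for the 15 plastid ribosomal protein genes 0.40. On the single arrays, photosystem genes had medians of 0.65 on A and 0.27 on B, and ATP synthase genes 0.32 on A and 0.80 on B. The other classes differed less between the arrays. The median of water B minus water A was -0.50 for NDH, -0.47 for ribosomal protein, -0.36 for RNA polymerase and -0.31 for cytochrome genes. It was -0.18 for photosystem and 0.17 for ATP synthase genes. In the NDH and ribosomal protein classes the water arrays were thus about as far apart as the class median lay above water.

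psbT, for a small subunit of photosystem II, had signals of 30.4 and 30.9 in 3 µM ABA, against 7.06 and 8.18 in water. Its replicates were close and the groups far apart, with a log2 difference of 1.58 ± 0.24 (SE), an unadjusted limma p of 6.49e-05 and an adjusted p of 0.56. psbB, for the CP47 antenna protein of the same photosystem, had 60.1 and 64.2 in 3 µM ABA, against 22.1 and 29.5 in water. Its log2 difference was 1.16 ± 0.19. Both genes were also higher in dry seed than in 3 µM ABA, at 88.7 and 60.3 for psbT and 125.0 and 126.5 for psbB.

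psaI, for a small subunit of photosystem I, had 96.5 and 126.7 in 3 µM ABA and 51.4 and 48.7 in water, a log2 difference of 1.09 ± 0.21. The reaction centre genes psaA and psaB differed by 0.99 and 0.88. psbA, for the D1 protein of photosystem II, had 58.1 and 75.3 in 3 µM ABA and 35.4 and 34.1 in water. At the other end of the class psbE, for a subunit of cytochrome b559, had 305 and 291 in 3 µM ABA and 300.4 and 294 in water, and the 95% interval of its difference ran from -0.45 to 0.47.

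atpF, for a membrane subunit of the plastid ATP synthase, had 92.1 and 139.4 in 3 µM ABA, against 36.2 and 53.5 in water. Its difference was 1.29 ± 0.26. atpA, for the alpha subunit, had 325 and 445 in 3 µM ABA and 205 and 199 in water, with a difference of 0.90 ± 0.20. atpH, for the ring subunit, had 46.7 and 92.8 in 3 µM ABA and 33.4 and 35.6 in water. In atpF, atpA and atpH the arrays of both groups stayed apart, and array B in 3 µM ABA was the higher one.

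Among the NDH genes, ndhG had 14.9 and 35.6 in 3 µM ABA, against 7.35 and 2.18 in water. Its difference of 1.71 ± 0.47 was the widest of the 68 plastid-encoded genes. ndhD had 145.8 and 181.7 in 3 µM ABA and 98.3 and 79.5 in water, a difference of 0.85 ± 0.20. ndhH had 38.0 and 33.8 in 3 µM ABA and 25.8 and 20.7 in water, with a difference of 0.55 ± 0.23.

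Genes of the plastid's own expression machinery lay on the same side. All 4 genes of the plastid-encoded RNA polymerase were above the water mean. rpoC2 had 51.2 and 91.98 in 3 µM ABA and 38.9 and 28.6 in water, and rpoA had 276 and 367 in 3 µM ABA against 217 and 173 in water. rpoB had 101.9 and 57.5 in 3 µM ABA and 59.0 and 39.0 in water, so that its groups overlapped. rpoC1 overlapped as well, with 639 and 466 in 3 µM ABA and 475 and 399 in water. rps4, for a protein of the small plastid ribosomal subunit, had 174.8 and 346 in 3 µM ABA and 87.9 and 131.5 in water. rps2 had 145.0 and 184.9 in 3 µM ABA and 114.3 and 81.6 in water, and rpl14, for the large subunit, 103.6 and 76.1 in 3 µM ABA and 61.5 and 56.7 in water.

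The cytochrome genes were closer to their own spread. petA, for cytochrome f, had 166.3 and 158.5 in 3 µM ABA and 111.1 and 110.1 in water, a difference of 0.54 ± 0.18. petL and petG, for small subunits of the cytochrome b6f complex, had 102.3 and 162.4, and 134.5 and 196.3, in 3 µM ABA. In water they had 99.5 and 57.2, and 137.1 and 69.0, so that water A reached or passed array A in 3 µM ABA for petG only. The 3 plastid genes below the water mean were clpP, for a protease subunit, with a difference of -0.14, rps16 with -0.02, and psbF.

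**Figure D2:**
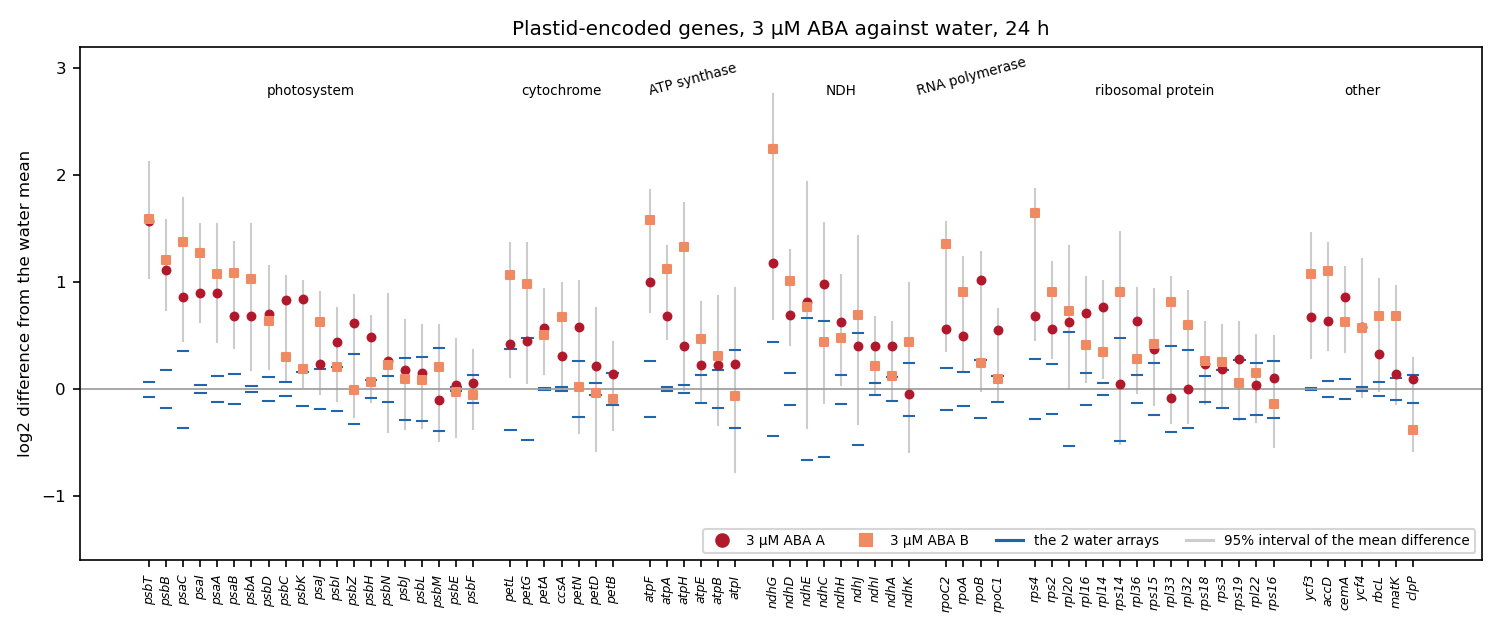
Log2 difference of array A (circles) and array B (squares) in 3 µM ABA from the water mean for each of the 68 plastid-encoded genes, grouped by function, with the 2 water arrays as blue ticks and the 95% limma interval of the mean difference as a grey line. Most circles and squares lie above the ticks, from ndhG at 1.71 and psbT at 1.58 on average down to clpP at -0.14.

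Mitochondrion-encoded genes lay the same way. Of 13 measured, 12 were above the water mean. At an unadjusted p under 0.05 there were 5, all higher, against 2.96% of all probe sets. For 8 (61.5%) both 3 µM ABA arrays lay above both water arrays, against 18.2% of all probe sets. The list median was 0.50, or 0.48 on array A and 0.74 on array B. On array A 9 of the 13 genes were above the water mean, and on array B all 13. Water B lay above water A by a median of 0.35 in this list. nad4, for a subunit of respiratory complex I, had 54.1 and 100.3 in 3 µM ABA, against 33.8 and 23.7 in water, a difference of 1.26 ± 0.31. ccb382, for a protein of cytochrome c biogenesis, had 81.1 and 115.4 in 3 µM ABA and 39.3 and 51.1 in water, a difference of 1.05 ± 0.21. nad5 had 32.9 and 33.96 in 3 µM ABA and 20.2 and 23.1 in water. The exception was nad1, with 27.1 and 65.7 in 3 µM ABA and 36.4 and 70.7 in water.

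Some control probe sets differed between the groups as well. Of the 6 ratios of 3′ to 5′ signal of control transcripts, 2 were lower on both 3 µM ABA arrays than on both water arrays and 0 were higher on both, while the other 4 overlapped. A GAPDH ratio was 0.942 and 0.884 in 3 µM ABA, against 1.31 and 1.05 in water, and an actin ratio was 2.42 and 2.73 in 3 µM ABA, against 2.94 and 3.799 in water. The 25S ribosomal RNA control signal was 1.83 and 38.8 in 3 µM ABA and 7.25 and 10.1 in water, so the arrays in 3 µM ABA lay on opposite sides of water. It was 28.3 and 13.6 in 30 µM ABA. The part of these values in the organelle results was not tested. A change in the mix of cells and more plastid RNA in each cell cannot be told apart in RNA from whole seed.

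Genes of seed reserves lay above water in 3 µM ABA. All 6 measured seed storage protein genes were above the water mean, with a median of 0.44. For 4 of them (66.7%) both arrays lay above both water arrays, against 18.2% of all probe sets. All 4 measured oil body genes were above the water mean too, with a median of 0.66, and 3 (75.0%) had arrays that did not overlap. At an unadjusted p under 0.05 there were 2 storage and 1 oil body genes, all higher, against 2.96% of all probe sets. Array A showed medians of 0.27 and 0.42 for these lists and array B 0.60 and 0.93. All 10 genes had their highest group mean in dry seed.

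AT4G36700, a cupin of the vicilin type, had 196.1 and 265 in 3 µM ABA, against 102.1 and 115.0 in water. Its difference was 1.05 ± 0.26, and dry seed had 1630.4 and 1240.3. AT1G03890, a cruciferin, had 35.9 and 46.6 in 3 µM ABA and 29.6 and 27.9 in water, against 2055.6 and 1919.2 in dry seed. Most of its dry-seed signal was thus gone at 24 h with and without ABA. AT2G28490, another cupin, had 461 and 747 in 3 µM ABA and 327 and 479 in water, so that its groups overlapped.

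Oleosins are the proteins that coat seed oil bodies. The oleosin AT3G18570 had 71.6 and 98.8 in 3 µM ABA, against 44.2 and 38.2 in water, with a difference of 0.97 ± 0.19. OLEO3 had 281 and 267 in 3 µM ABA and 207 and 199 in water, a difference of 0.43 ± 0.22. AT3G01570 had 782 and 962 in 3 µM ABA and 632 and 568 in water. AT2G25890 had 322 and 840 in 3 µM ABA and 217 and 412 in water, where array A in 3 µM ABA lay below water B.

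LEA proteins and dehydrins, which protect cells during drying, were divided. Of the 30 measured, 18 lay above and 12 below the water mean, with a median of 0.24. Both 3 µM ABA arrays were above both water arrays for 8 (26.7%) and below both for 4 (13.3%), against 18.2% and 11.7% of all probe sets. The lower share was thus near that of all probe sets. At an unadjusted p under 0.05 there were 5 higher and 1 lower, against 2.96% and 1.03% of all probe sets. Array A had a list median of -0.03 and array B one of 0.47, and B was above A for 25 of the 30. The water arrays differed by 0.46 in the same list, water B being the higher, so that the list median was 0.04 without water A and -0.03 without 3 µM ABA B.

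The LEA gene AT4G36600 had 71.7 and 169.1 in 3 µM ABA, against 28.4 and 61.2 in water, and a difference of 1.32 ± 0.49. The dehydrin gene AT4G39130 had 48.3 and 87.7 in 3 µM ABA and 19.8 and 37.1 in water, a difference of 1.15 ± 0.41. For AT2G42560 the signals were 24.2 and 58.6 in 3 µM ABA and 13.0 and 22.7 in water, and for AT5G44310 they were 282 and 414 in 3 µM ABA and 181.2 and 242 in water. In all 4 array A lay just above water B and array B well above it. Other members overlapped between the groups. LEA4-5 had 625 and 1102 in 3 µM ABA and 829 and 894 in water, and LEA18 had 993 and 1041 in 3 µM ABA and 836 and 1304 in water. AT2G03850 was lower, with 9.99 and 8.87 in 3 µM ABA and 15.1 and 29.4 in water, a difference of -0.91.

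Only 3 transcription factors of the ABA and seed maturation list had a named probe set past the filter. EEL, a bZIP factor related to ABI5, had 44.6 and 59.5 in 3 µM ABA and 37.6 and 31.8 in water, a difference of 0.53 ± 0.19. AGL67, a MADS-box factor of the seed, had 54.1 and 93.4 in 3 µM ABA and 37.9 and 50.6 in water, a difference of 0.65 ± 0.30. SPT, a bHLH factor of germination control, lay on the other side, with 232 and 173.4 in 3 µM ABA and 241 and 251 in water. For all 3 the arrays did not overlap, and the unadjusted limma p was 0.0179 for EEL, 0.0551 for AGL67 and 0.166 for SPT.

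Of the ABA-responsive genes 3 were measured. PUB19, a U-box ubiquitin ligase, had 179.4 and 198.2 in 3 µM ABA, against 116.2 and 89.6 in water, a difference of 0.86 ± 0.21 with an unadjusted limma p of 0.00181. COR47, a dehydrin that is also in the LEA list, had 276 and 242 in 3 µM ABA and 235 and 399 in water. HVA22C had 15.1 and 22.6 in 3 µM ABA and 17.2 and 18.7 in water. Arrays of the groups overlapped for COR47 and HVA22C.

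Gibberellin genes showed no shift that the arrays could resolve. The receptor GID1A had 158.1 and 222 in 3 µM ABA and 153.5 and 163.0 in water, and the receptor GID1C had 17.0 and 18.3 in 3 µM ABA and 31.3 and 16.7 in water. SLY1, the F-box protein that marks DELLA repressors for breakdown, had 119.7 and 160.9 in 3 µM ABA and 138.3 and 151.6 in water. Its relative SLY2 had 16.4 and 11.2 in 3 µM ABA and 14.3 and 14.9 in water. The 95% intervals ran from -0.17 to 0.65 for GID1A and from -0.47 to 0.36 for SLY1.

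**Figure D3:**
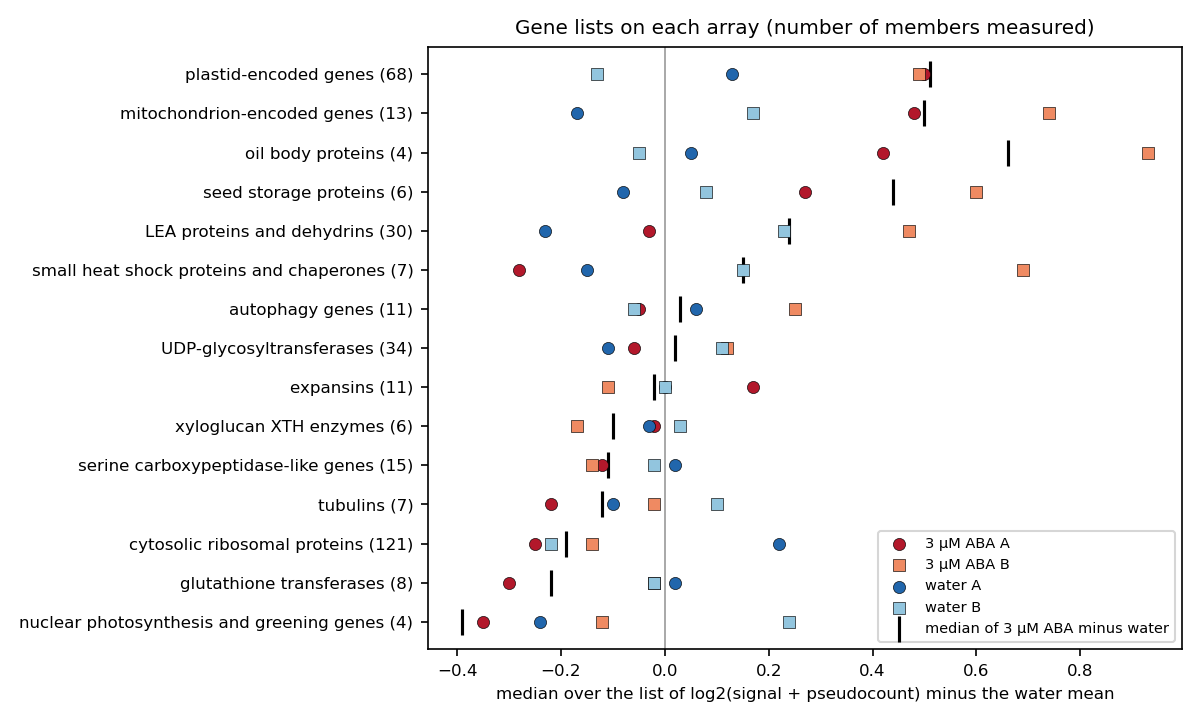
Median over each gene list of the log2 difference from the water mean, for array A and array B in 3 µM ABA and for the 2 water arrays, with the median of the mean difference as a black bar. Plastid-encoded genes are at 0.50 and 0.49 on the 3 µM ABA arrays, whereas LEA genes are at -0.03 and 0.47 and ribosomal protein genes, at -0.25 and -0.14, enclose water B at -0.22.

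Cytosolic ribosomal protein genes lay below water. Of the 121 measured, 100 were below and 21 above the water mean, with a median of -0.19, although under spike-in scaling it was 0.07, relative to 0.28 over the whole table. For 37 (30.6%) both 3 µM ABA arrays were below both water arrays, against 11.7% of all probe sets, and for 4 (3.3%) above. At an unadjusted p under 0.05 there were 8 of the 121, all lower, against 1.03% of all probe sets. The water arrays were further apart than that, with water A above water B for 116 of the 121 and a median gap of 0.43. Without water A the list median was -0.00 and without water B -0.40, so the shift against water rests on array A of water.

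AT3G09200, for the acidic P0 protein of the large subunit, had 733 and 458 in 3 µM ABA, against 1695 and 744 in water. Its difference of -0.95 ± 0.36 was the lowest among the brighter genes with separate arrays. AT5G15200, for S9 of the small subunit, had 1122 and 787 in 3 µM ABA and 1889.9 and 1242 in water, a difference of -0.70 ± 0.24. AT1G15930, for S12, had 985 and 538 in 3 µM ABA and 1588 and 998 in water. AT3G07110, for L13a, had 1016 and 918 in 3 µM ABA and 1828 and 1132 in water. In each of these array A in 3 µM ABA lay close to water B. AT5G19510, for a subunit of elongation factor 1B, had 1011 and 663 in 3 µM ABA and 1749 and 1194 in water, a difference of -0.82 ± 0.26. AT4G39200, for S25, lay above both water arrays on both arrays, far above on A and little above on B, with 1529.8 and 706 in 3 µM ABA and 668 and 651 in water.

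Among the brighter probe sets with separate arrays, the 10 highest genes were a mixture of organelle and seed genes. Besides AT4G36600, AT4G39130, AT4G36700, atpF, nad4, rps4 and psaI they were AT3G15280, AT1G27990 and AT5G18450. AT3G15280 had 60.4 and 163.9 in 3 µM ABA, against 28.8 and 38.3 in water, a difference of 1.48 ± 0.41. AT1G27990 had 181.9 and 352 in 3 µM ABA and 88.5 and 153.6 in water. AT5G18450, an AP2-type transcription factor of the DREB group, had 121.0 and 256 in 3 µM ABA and 61.9 and 105.2 in water. For all 10 the B array in 3 µM ABA was the higher, and dry seed exceeded 3 µM ABA in 7. The means in 30 µM ABA were above those in 3 µM ABA for all 10. This order involves no water array and was not tested. That both doses lay above water adds no separate support, since they share water arrays that were low for these genes by choice.

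The 10 lowest genes held 3 ribosomal protein genes and AT5G19510, given above. AT1G29080, for a papain-type cysteine protease, had 224 and 186.4 in 3 µM ABA, against 316 and 499.8 in water, a difference of -0.95 ± 0.28. It was close to 0 in dry seed, at 0.58 and 2.93. AT1G73120, which was likewise dim in dry seed at 11.1 and 7.001, had 500.4 and 767 in 3 µM ABA and 1023 and 1049 in water. MT1C, a metallothionein, had 114.2 and 206 in 3 µM ABA and 214 and 287 in water. AT1G32700, a PLATZ-type transcription factor, had 88.1 and 71.2 in 3 µM ABA and 96.9 and 156.9 in water. AT2G28430 had nearly equal signals of 139.97 and 137.6 in 3 µM ABA, against 233 and 191.7 in water, and AT1G75980 had 85.1 and 73.5 in 3 µM ABA against 133.2 and 108.4 in water.

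**Figure D4:**
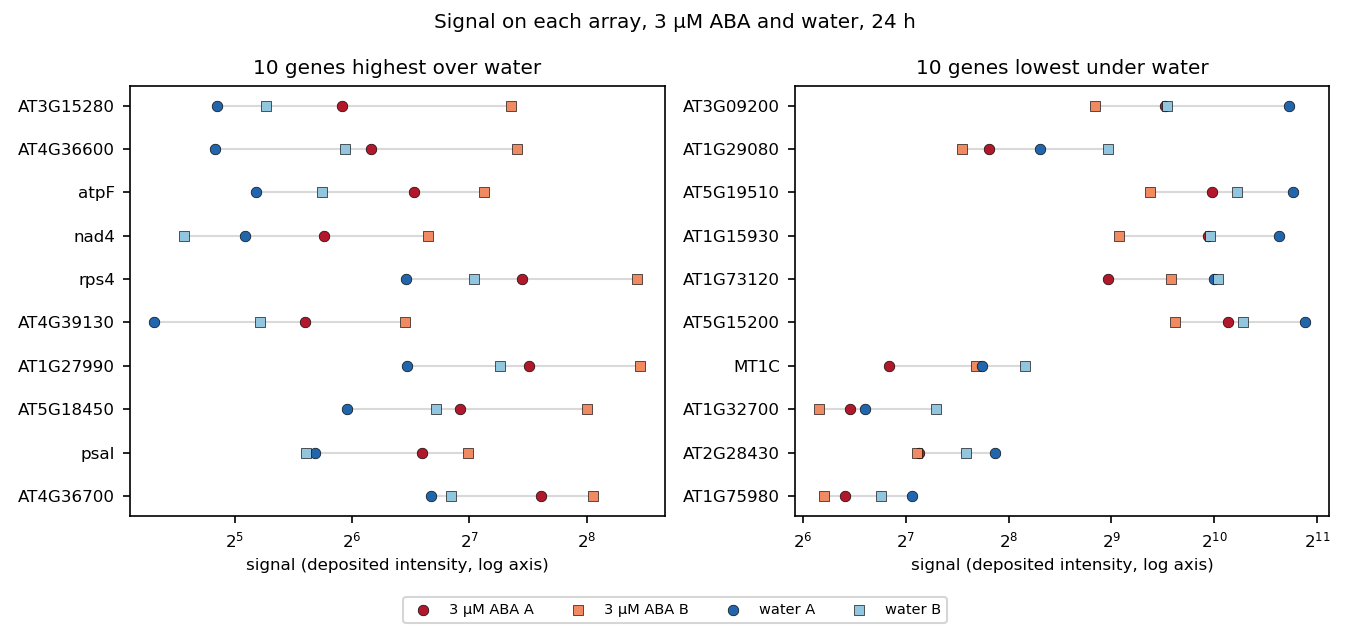
Signal on each array (log axis) of the 10 genes highest over water (left) and the 10 lowest (right) among brighter probe sets whose arrays did not overlap, with 3 µM ABA in red tones and water in blue tones. In the left panel array B in 3 µM ABA is the highest point in all 10 rows, and in the right panel AT3G09200 and AT1G15930 show array A in 3 µM ABA next to water B.

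Among probe sets that name a single gene, the 10 smallest p-values all belonged to genes above water, 5 of them plastid-encoded (psbT, psbB, psaI, atpF and atpA), with ccb382 and AT3G18570 given above. AT1G70985 had 36.2 and 36.6 in 3 µM ABA, against 14.2 and 14.4 in water, with replicates that were almost equal in both groups. Its difference was 1.14 ± 0.18 with an adjusted p of 0.56, and its levels in 30 µM ABA were 60.6 and 58.3. GSTU28, a glutathione transferase, had 11.4 and 15.2 in 3 µM ABA and 3.36 and 1.43 in water. AT5G59540, an oxygenase of the 2-oxoglutarate family, had 11.28 and 11.0002 in 3 µM ABA and 1.43 and 0.75 in water. For the last pair the water signals lie under the pseudocount, so the log2 differences of 1.44 and 1.58 depend on it. No ratio of signals can be read from values this dim.

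The gap between the nearest arrays of the groups exceeded 1 for 10 probe sets above and 2 below water. The pair below comprises RSU1, named here after its values were seen, and a probe set that names no gene. RSU1 had 17.5 and 17.4 in 3 µM ABA, against 42.5 and 42.4 in water, and 17.8 and 17.9 in 30 µM ABA. Its difference was -1.11 ± 0.32 with an adjusted p of 0.999.

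Several enzyme families were also measured. Of 15 serine carboxypeptidase-like genes 12 lay below water (median -0.11), 4 (26.7%) with separate arrays, although with spike-in scaling the median was 0.13. The protease gene SCPL34 had 38.5 and 37.7 in 3 µM ABA, against 53.0 and 110.2 in water. Its relative scpl35 had 920.2 and 927 in 3 µM ABA and 1718 and 1056 in water, and SCPL43 lay above water with 15.3 and 16.3 in 3 µM ABA and 5.30 and 10.5 in water. Of 8 glutathione transferase genes 7 lay below water (median -0.22). For 3 (37.5%) both 3 µM ABA arrays lay below both water arrays, against 11.7% of all probe sets, in a list of few members. Here the list median with spike-in scaling was 0.02, again relative to 0.28 over the whole table. GSTL3 had 26.4 and 26.8 in 3 µM ABA and 38.5 and 38.8 in water, and GSTU20 had 71.4 and 105.3 in 3 µM ABA and 108.4 and 103.1 in water. The 34 UDP-glycosyltransferase genes were split into 18 above and 16 below (median 0.02). For 3 (8.8%) both 3 µM ABA arrays lay above both water arrays, against 18.2% of all probe sets. For 6 (17.6%) both lay below, against 11.7%. UGT74D1 had 182.9 and 193.3 in 3 µM ABA and 224 and 265 in water. UGT78D1 had 42.7 and 27.1 in 3 µM ABA and 50.4 and 55.0 in water. GT72B1 had 5.94 and 11.03 in 3 µM ABA and 12.7 and 25.002 in water.

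Genes of growth lay on both sides of water. Their medians with spike-in scaling are to be read relative to 0.28 over the whole table. The 11 expansins, which loosen cell walls, had a median of -0.02, or 0.24 with spike-in scaling, and EXPA9 had 1156 and 1015 in 3 µM ABA and 1537 and 1119 in water. EXPB3 had 15.01 and 12.6 in 3 µM ABA and 7.61 and 7.54 in water, and EXPB5 had 7.30 and 12.9 in 3 µM ABA and 5.23 and 6.91 in water. The 6 xyloglucan-modifying XTH genes had a median of -0.10, or 0.16 with spike-in scaling, with XTH18 at 30.1 and 54.7 in 3 µM ABA and 37.7 and 126.1 in water, and XTH33 at 58.2 and 45.6 in 3 µM ABA and 52.6 and 121.4 in water. XTH20 had 11.9 and 17.2 in 3 µM ABA and 10.02 and 6.55 in water. The 7 tubulins had a median of -0.12, which was 0.14 with spike-in scaling, and TUA6 had 1281 and 1241 in 3 µM ABA, against 1953 and 1429 in water. TUB6 had 109.9 and 127.6 in 3 µM ABA and 116.6 and 142.7 in water, and TUB1 had 183.9 and 105.7 in 3 µM ABA and 176.2 and 183.6 in water.

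Nuclear photosynthesis genes lay below water in all 4 measured cases, with a median of -0.39. The list median was -0.35 on array A and -0.12 on array B, where 2 of the 4 genes lay above the water mean, and water B lay above water A by 0.48. Without water A the median was -0.59, and without water B it was -0.10. RCA, for Rubisco activase, had 211 and 203 in 3 µM ABA, against 241 and 279 in water. PORB, for a chlorophyll synthesis enzyme, had 45.7 and 41.0 in 3 µM ABA and 42.6 and 87.7 in water. The antenna gene LHCB4.1 had 168.0 and 225 in 3 µM ABA and 177.4 and 244 in water, and LHCB4.2 had 6.27 and 24.2 in 3 µM ABA and 15.96 and 24.6 in water. Only RCA had arrays that did not overlap, and the difference between nuclear and plastid-encoded genes was not tested.

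Genes of storage lipid breakdown lay close to water in 3 of 4 cases. The lipase gene SDP1 had 287 and 291 in 3 µM ABA and 282 and 271 in water, SDP1-LIKE had 125.6 and 99.6 in 3 µM ABA and 111.5 and 109.6 in water, and AIM1, for beta-oxidation, had 491 and 391 in 3 µM ABA and 375 and 463 in water. ICL, the isocitrate lyase gene of the glyoxylate cycle, had 38.2 and 52.3 in 3 µM ABA, against 695 and 0.13 in water, so the water arrays disagreed and no difference can be read for it. The list of small heat shock proteins and other chaperones had 7 measured genes, 5 above and 2 below the water mean (median 0.15). Its median was -0.28 on array A and 0.69 on array B in 3 µM ABA. Water B lay above water A by a median of 0.30. AT2G29500 had 13.4 and 47.0 in 3 µM ABA and 7.36 and 33.0 in water, and AT5G37670 had 25.5 and 24.0 in 3 µM ABA and 21.3 and 21.8 in water. The small heat shock protein gene AT4G21870 had 329.9 and 246 in 3 µM ABA and 367 and 442 in water. AT5G37670 and AT4G21870 were thus higher on array A than on array B in 3 µM ABA, against the list medians.

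The 11 autophagy genes had a median of 0.03, with APG8A at 163.3 and 184.4 in 3 µM ABA and 148.6 and 137.2 in water. ATG8D had 131.3 and 158.5 in 3 µM ABA and 135.6 and 116.7 in water, and ATG8G had 144.8 and 139.0 in 3 µM ABA and 202.8 and 128.9 in water. Of the 3 cell cycle genes, HBT had 116.5 and 100.2 in 3 µM ABA and 71.8 and 86.7 in water, PRL had 116.8 and 91.1 in 3 µM ABA and 96.1 and 112.0 in water, and CDC27a had 7.86 and 26.6 in 3 µM ABA and 6.39 and 13.5 in water.

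The genes that differed most between the 3 µM ABA arrays, among those with close water arrays, overlapped between 3 µM ABA and water, except AT3G15280 and AT4G39200, both given above. AT1G70810 had 34.4 on A and 104.3 on B in 3 µM ABA, against 44.3 and 48.3 in water. For AT5G67490 array A had 100.9 and array B 285, against 176.6 and 190.8 in water, so the arrays fell on opposite sides of water. AT4G27530 had 79.8 on A and 213 on B, against 83.6 and 98.2 in water, and AT3G25870 had 28.8 on A and 79.9 on B, against 34.9 and 24.5 in water. Both of these had dry-seed signals far above either, at 2289 and 1843 for AT4G27530 and 937 and 755 for AT3G25870.

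In the other direction AT3G50590 had 151.2 on A and 54.3 on B in 3 µM ABA, against 72.2 and 71.5 in water. AT5G55050 had 147.2 on A and 57.9 on B, against 149.9 and 136.4 in water, and AT2G34020 had 319 on A and 151.5 on B, against 304 and 286 in water. Mfl1 had 159.6 on A and 73.8 on B, against 154.0 and 119.1 in water. For AT5G55050, AT2G34020 and Mfl1 array A was at the level of water and array B below it.

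**Figure D5:**
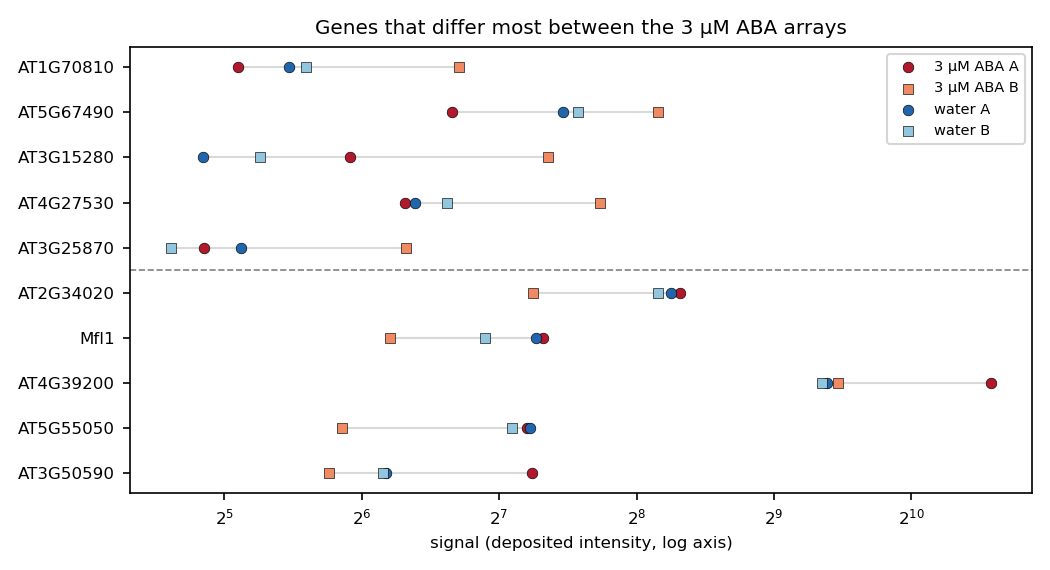
Signal on each array (log axis) of the 5 genes with array B furthest above array A in 3 µM ABA (above the dashed line) and the 5 with array A furthest above array B (below it), chosen among genes whose water arrays lie within 0.5 on the log2 scale. AT5G67490 and AT3G50590 have their water arrays between the arrays in 3 µM ABA.

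Markers of seed and of other tissues were set beside these results. Members of the seed storage, oil body and LEA lists passed the filter on mean signal, which is not a call of detection in either group. All storage and oil body members had their highest group mean in dry seed, but only 22 of 30 LEA members did. The LEA member COR47 had 7.13 and 6.01 in dry seed, against 235 and 399 in water. Of the seed coat list 1 gene was measured, DFR, with 15.3 and 12.9 in 3 µM ABA and 14.8 and 3.58 in water, and of the endosperm list 1, AGL62, with 6.79 and 11.4 in 3 µM ABA and 6.65 and 8.93 in water. Of the guard cell lineage genes SPCH had 55.1 and 29.5 in 3 µM ABA and 39.9 and 52.2 in water, MUTE had 24.3 and 13.98 in 3 µM ABA and 17.8 and 12.0 in water, and FMA had 15.4 and 14.9 in 3 µM ABA and 9.97 and 9.04 in water. Only FMA had arrays that did not overlap.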

How the data were processed

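Signal was measured on single-colour arrays in 4 groups of 2. The authors deposited linear signal intensities, 1 for each probe set on each array. The submitters' processing notes name MAS5, without a version. Every array has the same trimmed mean (100.007 to 100.009), so the deposited scaling hides any difference in total messenger RNA. Median signal was 32.1 and 33.8 in 3 µM ABA and 30.9 and 32.2 in water, and the geometric mean of the spike-in controls was 127.8 and 189.4 in 3 µM ABA and 168.4 and 208.6 in water. The number of arrays limits the precision. Genes were named from the platform annotation (13513 probe sets with 1 gene, 503 with several, 8730 with none), and 13436 matched the RefSeq gene table of TAIR10.1, used for names only. No genome build is given in the sources used here, so no coordinates are given.

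The log2 scale was taken after adding a pseudocount of 3.99 (the 20th percentile of the table) to each signal, and probe sets with a mean above the 30th percentile were kept. All 8 arrays entered 1 fit in limma 3.58.1 under R 4.3.3 (lmFit and eBayes with an intensity trend, 4 residual degrees of freedom), with Benjamini-Hochberg adjustment over all 15922 probe sets. Groups were taken from the treatment labels and letters from the titles. The fit was tested on simulated data. Named genes were the 10 highest and 10 lowest among brighter single-gene probe sets with separate arrays, the 10 smallest p, up to 3 members of each list by p (all of them in lists of 4 or fewer), and the 5 differing most each way between the 3 µM ABA arrays. A gene with several probe sets is given by its brightest. Lists are described by counts and medians with no test. Members and lists were chosen with earlier results of these data known, and the list of cytosolic ribosomal proteins was written from locus codes after the annotation was seen. Alternatives were the pseudocount, the filter, the scaling, the arrays in the fit, the trend, a replicate block and each array left out.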

Additional observations from a re-analysis of the deposited data

How the results depend on the processing

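limma called 0 probe sets with pseudocounts of 1 and 16, no filter, a stricter filter (above the 50th percentile), a common median, quantile normalization, only the 4 or the 6 imbibed arrays, no intensity trend and each array left out (0 to 0). Spike-in scaling called 28, all higher, of which 5 were plastid-encoded and 18 had a mean signal in water under 10. The median of all probe sets was then 0.28, and the cause was not tested. Probe sets at an unadjusted p under 0.05 numbered 635, against 1133 without the filter, 401 with the stricter one, 970 with spike-in scaling, and 1076 without 3 µM ABA A. With the letter as a replicate block the count called was 0, with 756 at an unadjusted p under 0.05 and a smallest adjusted p of 0.555. The labels do not say what the letters mark. The A minus B differences of 3 µM ABA and of water correlated at 0.307, and with 2 arrays a group this is a hint from the data, not from the design. With the water arrays exchanged, the share of equal signs was 43.5%, against 51.2%. The plastid-encoded median lay between 0.36 (without water B) and 0.64 (without water A) in all alternatives but spike-in scaling. The LEA median of 0.24 lay between -0.03 and 0.47 with an array left out, the median of small heat shock protein genes between -0.28 and 0.69, and that of cytosolic ribosomal protein genes, -0.19 with the deposited scaling, between -0.40 and -0.00, and at -0.03 with quantile normalization.

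Log2 differences of named genes kept their sign in all but 55 of 1597 comparisons with an alternative, and 11 were called, all with spike-in scaling. The filters, the trend, the fits limited to imbibed arrays and the replicate block leave a difference of group means unchanged. No sign could turn in those comparisons, so the ratio of 55 to 1597 does not measure robustness. Genes whose arrays did not overlap also cannot turn with 1 array left out. With spike-in scaling the sign turned for AT5G67490 (0.15), SPCH (0.10), SLY2 (0.15), TUB6 (0.14), LHCB4.1 (0.17), ATG8G (0.078), SLY1 (0.20), PRL (0.25), ICL (0.12) and COR47 (0.024). It turned with quantile normalization for AGL62 (-0.085) and HVA22C (-0.067), with a common median for SDP1-LIKE (-0.043) and HVA22C (-0.009), and with a pseudocount of 1 for ICL (0.71). With 1 array left out it turned for GID1C (-0.705 to 0.063), AT5G67490 (-0.84 to 0.625), AGL62 (-0.12 to 0.396), AT5G55050 (-1.25 to 0.041), SPCH (-0.57 to 0.25), SLY2 (-0.29 to 0.14), DFR (-0.054 to 1.26), Mfl1 (-0.84 to 0.23), TUB6 (-0.26 to 0.022), LHCB4.1 (-0.32 to 0.13), ATG8G (-0.504 to 0.14), SDP1-LIKE (-0.15 to 0.18), AT3G50590 (-0.38 to 1.03), XTH18 (-1.541 to 0.102), AIM1 (-0.091 to 0.23), AT4G27530 (-0.175 to 1.198), PORB (-0.96 to 0.019), SLY1 (-0.27 to 0.15), PRL (-0.18 to 0.16), MUTE (-0.056 to 0.597), AT2G34020 (-0.94 to 0.11), ICL (-3.843 to 3.566), AT3G25870 (-0.019 to 1.33), LHCB4.2 (-1.22 to 0.24), GID1A (-0.001 to 0.48), CDC27a (-0.19 to 1.18), COR47 (-0.62 to 0.14), HVA22C (-0.199 to 0.28), AT1G70810 (-0.39 to 1.11), TUB1 (-0.74 to 0.031) and AT2G29500 (-0.32 to 1.39). Signals near or under the pseudocount limit what can be read for dim genes.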
